A study of Mus musculus with 8 samples.

Results

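The TNF superfamily is a set of cytokine ligands, most of them made as membrane proteins that can be shed, and of receptors that share cysteine-rich repeats outside the cell. Receptors without a death domain bind TRAF adaptor proteins and pass the signal to NF-kappaB and MAP kinases, whereas receptors with a death domain can instead recruit caspases. In the small intestine the family is known for building Peyer's patches through lymphotoxin, for keeping B lymphocytes alive through BAFF and APRIL, and for epithelial inflammation and cell death through TNF. Members here were genes of the array whose symbol begins with Tnfsf or Tnfrsf and a number, together with Tnf, Lta, Ltb, Ltbr, Cd40 and the TRAF genes Traf1, Traf2, Traf3, Traf5 and Traf6. Of 42 mouse genes in RefSeq that fit this rule, 37 were measured among the 17097 genes of the array, namely 11 ligands, 21 receptors, 4 adaptors and the RNA Tnfsf13os, which is read from the opposite strand of the Tnfsf13 locus and is no ligand. Tnfsf12, Tnfsf15, Tnfsf18, Tnfrsf26 and Traf3 were not analysed here.

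Ileal tissue came from adult male mice on a C57BL/6 background, 4 of them wild type and 4 with Slc51a inactivated. Slc51a encodes a subunit of the transporter by which bile acids leave enterocytes on the basolateral side. All mice were about 2 months old and had fasted for 4 h, and RNA of each was hybridised to its own Affymetrix 3' array. The samples are labelled as biological replicates, and where the deletion lies in the gene is not stated in the labels.

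Values are the authors' normalised log2 signals, on which a difference of 1 is a doubling, and each difference is the knockout mean less the wild-type mean, given with a standard error (SE) from limma (n = 4 per genotype). A gene is said to have risen or fallen where its p, adjusted over all genes by the Benjamini-Hochberg method, was under 0.05. The median of all probe sets was 4.58, and a gene whose mean lay below it in both genotypes is called dim, because its expression is not shown and its difference may be understated. Slc51a itself fell by 6.75 (SE 0.05, adjusted p = 4.86e-14), which bears out the labels. All 7 measured markers of a list of intestinal and ileal genes lay above that median. In at least 1 genotype 11100 of the 17097 genes lay at or above it. Of the 7 markers, Slc10a2 (-0.45) and Vil1 (-0.24) fell and Cdx1 (0.37) rose. Measured markers of mature enterocytes (14 of 14, Vil1 among them) and smooth muscle (10 of 10) all fell. Over all genes 12.9% fell and 17.1% rose, shares to set beside each list below. The 3 arrays with the lowest hybridization controls were wild-type sample 2 and knockout samples 3 and 4. For members, and for pathway genes whose difference is given, the adjusted p found without these arrays is given where the call ended. Nfkbia, Nfkbiz, Cyld, Madcam1, Tnfaip2 and Selp are named below as fallen without a difference. Whether their calls stood without these arrays was not followed gene by gene.

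Of the 37 members 3 rose and 10 fell. Over all genes tested, 30% passed the threshold, 17.1% higher and 12.9% lower, against 35.1%, 8.11% and 27.0% of the members, so the share of members that passed was near that of all genes. The split over all genes depends on the scaling, with 2509 higher and 2646 lower by cyclic loess and 3316 and 1970 by median centring, where members counted 2 and 10 and 4 and 9. The median difference of the members was -0.06, beside 0.01 over all genes. Groups did not overlap for 13 members, 35.1%, against 30.7% of all genes. The 4 members that fell by at least 1.5-fold were Ltb, Tnfsf10, Tnfsf13b and Tnfrsf13c, where 2.77% of all genes fell by as much. There were 10 dim members, of which Tnfsf9 passed the threshold. No member rose by 1.5-fold, as 2.05% of all genes did. Without the 3 arrays, 2 members rose and 8 fell.

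**Figure D1:**
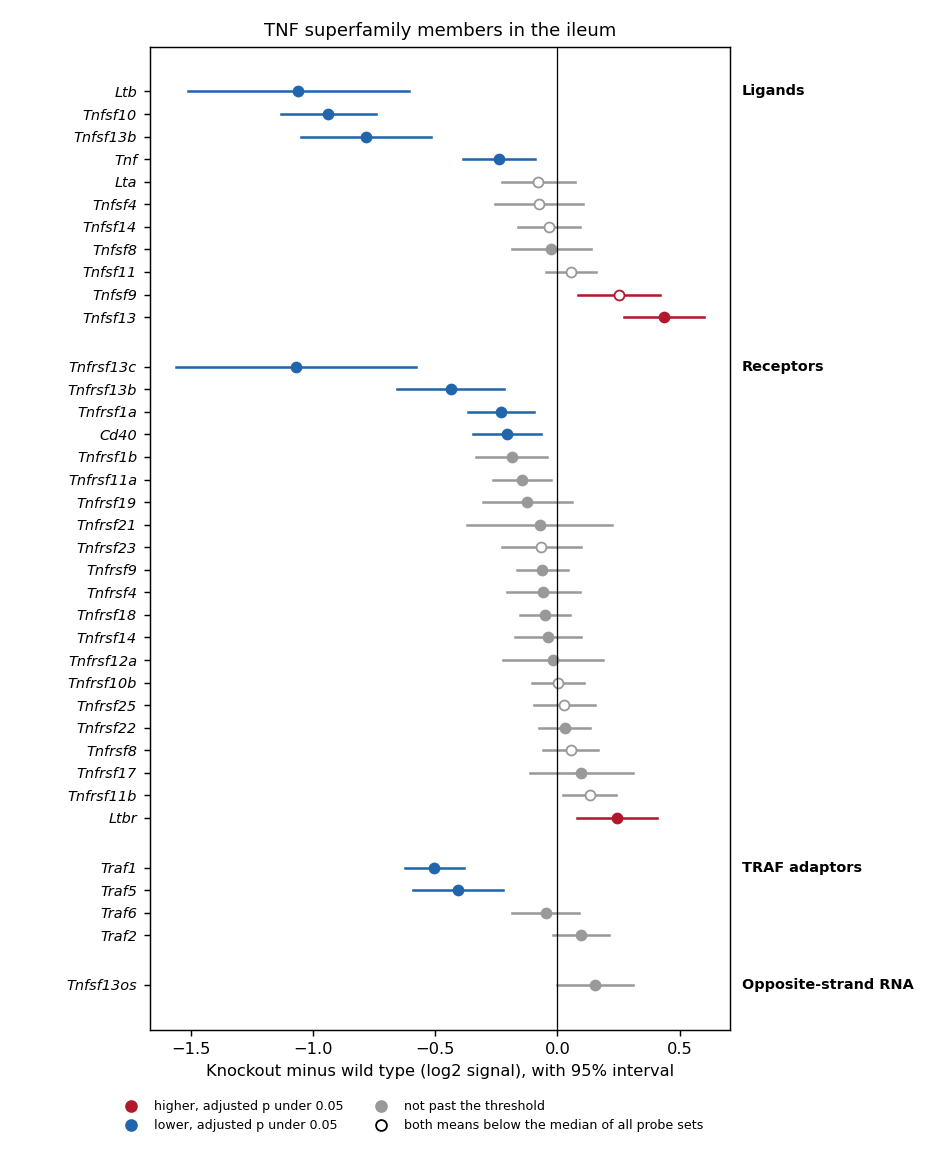
Difference between knockout and wild type (log2 signal, horizontal axis) for each of the 37 members, grouped by role, with its 95% interval from limma; filled points have a mean at or above the median of all probe sets in at least 1 genotype. Ltb, Tnfsf10, Tnfsf13b and Tnfrsf13c lie furthest to the left, and Tnfsf13 (0.44) furthest to the right.

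Among the ligands, Ltb, Tnfsf10, Tnfsf13b and Tnf fell and Tnfsf13 and Tnfsf9 rose. The 250 bases before the RefSeq start of the 3 ligands that fell most are shown. They are written 5' to 3' on the gene's strand, in build GRCm38.p6, with matches to the motifs searched in capitals, an NF-kappaB consensus in Ltb and in Tnfsf13b a pair of GAAA separated by any 2 bases, the core of elements bound by interferon regulatory factors. The windows are chr17:35194257-35194506 for Ltb (plus strand), chr3:27316827-27317076 for Tnfsf10 (plus strand) and chr8:10006383-10006632 for Tnfsf13b (plus strand, the later of 2 listed starts).
Ltb: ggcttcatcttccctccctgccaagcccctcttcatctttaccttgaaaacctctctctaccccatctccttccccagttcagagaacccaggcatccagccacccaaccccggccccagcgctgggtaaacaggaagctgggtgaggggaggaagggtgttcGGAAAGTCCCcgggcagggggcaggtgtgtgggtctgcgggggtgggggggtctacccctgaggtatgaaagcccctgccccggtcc
Tnfsf10: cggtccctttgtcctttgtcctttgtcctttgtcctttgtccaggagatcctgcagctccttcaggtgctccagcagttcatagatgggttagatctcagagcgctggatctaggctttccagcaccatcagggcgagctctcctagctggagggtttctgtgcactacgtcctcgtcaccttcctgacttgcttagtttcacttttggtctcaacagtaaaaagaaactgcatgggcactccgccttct
Tnfsf13b: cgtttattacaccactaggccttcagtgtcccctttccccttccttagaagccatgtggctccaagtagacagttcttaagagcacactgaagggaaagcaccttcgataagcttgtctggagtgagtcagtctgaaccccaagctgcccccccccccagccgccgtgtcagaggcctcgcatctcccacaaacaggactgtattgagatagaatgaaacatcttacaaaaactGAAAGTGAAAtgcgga
Windows of this length were at hand for 30 of the 37 members, among them 9 of the 10 that fell. On either strand, the NF-kappaB consensus was in 3 members (Ltb, Tnfrsf8 and Tnfrsf9) and in 3.9% of 32851 promoters of all genes, and the spaced GAAA pair was in 4 (Tnfsf13b, Tnfrsf14, Tnfrsf17 and Tnfrsf1b) and in 2.98%. A member counted where any of its listed starts had a match, whereas each share is of single windows. These counts and shares are therefore not like for like. The match in Ltb covers bases 87 to 78 before the start and that in Tnfsf13b bases 16 to 7. The inverted repeat bound by the bile acid receptor FXR, AGGTCA and TGACCT with 1 base between them, was in no member's window and in 0.00609% of all promoters. Matches of different motifs did not share a window. Of the members with a match, Ltb and Tnfsf13b fell and the other 5 did not pass the threshold.

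Ltb encodes lymphotoxin beta, the membrane anchor of the lymphotoxin heterotrimer through which lymphocytes signal to stromal cells of lymphoid tissue. Its log2 signal was 6.57, 6.80, 7.19 and 6.87 in the wild-type samples and 5.21, 5.82, 5.79 and 6.37 in the knockout samples. The groups did not overlap, and knockout sample 1 was the lowest of the 8. Ltb fell by 1.06 (SE 0.20, adjusted p = 0.00236), and it fell in all 19 alternatives, by 0.87 to 1.36. Lta, the soluble partner of the same complex, was dim, at 4.08 ± 0.12 (SD, n = 4) in the wild-type group and 4.00 ± 0.07 for the knockout group (difference -0.08, 95% interval -0.23 to 0.07). Ltbr, the receptor for the lymphotoxin heterotrimer on stromal and epithelial cells, was at 7.76, 7.95, 7.64 and 7.99 in wild type and at 8.03, 8.10, 8.07 and 8.12 in the knockout. Every knockout sample was above every wild-type sample, with wild-type sample 4 the closest. Ltbr rose by 0.24 (SE 0.07, adjusted p = 0.0281). Leaving out wild-type replicate 1 (adjusted p = 0.0752) or 3 (adjusted p = 0.0677) ended the call of Ltbr, as did leaving out knockout replicate 2, 3 or 4 (adjusted p = 0.0606, 0.0560 and 0.0632). It was also lost with cyclic loess normalisation (0.18, adjusted p = 0.0762) and without the 3 arrays (0.27, adjusted p = 0.114).

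BAFF and APRIL, the ligands that keep B lymphocytes and plasma cells alive, moved in opposite directions. Tnfsf13b, which encodes BAFF, was at 6.69, 6.29, 6.64 and 6.63 in wild type and at 5.73, 5.97, 5.97 and 5.45 in the knockout. The groups did not overlap, with wild-type sample 2 the lowest of its group. Tnfsf13b fell by 0.78 (SE 0.12, adjusted p = 0.000574). The other 2 probe sets of Tnfsf13b were dim, and the mean of all 3 fell by 0.31 (adjusted p = 0.00942). Tnfsf13, which encodes APRIL, was at 7.40, 7.09, 7.18 and 7.05 in wild type and at 7.69, 7.56, 7.60 and 7.61 in the knockout. All 4 knockout samples were higher than all wild-type samples, among which sample 1 was the highest. Tnfsf13 rose by 0.44 (SE 0.07, adjusted p = 0.00101). Tnfsf13os, from the opposite strand of that locus, was at 6.46 ± 0.16 and 6.62 ± 0.03 (difference 0.15, adjusted p = 0.138), and it passed the threshold without wild-type replicate 1 (0.22, adjusted p = 0.0210).

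The receptors of these ligands did not all follow them. Tnfrsf13c encodes the BAFF receptor of mature B lymphocytes, and it was at 6.05, 6.92, 6.79 and 6.76 in wild type and at 4.97, 5.52, 5.84 and 5.91 in the knockout. The groups did not overlap, sample 1 was the lowest in each genotype, and wild-type sample 1 was close above knockout sample 4. Tnfrsf13c fell by 1.07 (SE 0.22, adjusted p = 0.00372). Tnfrsf13b, which encodes TACI, a receptor for both ligands, was at 5.55, 5.31, 5.69 and 5.46 in wild type and at 4.92, 5.33, 5.02 and 4.98 in the knockout. Here knockout sample 2 lay above wild-type sample 2, so the groups overlapped. Tnfrsf13b fell by 0.44 (SE 0.10, adjusted p = 0.0062). Tnfrsf17, which encodes BCMA, the receptor of plasma cells, was at 4.95 ± 0.19 and 5.04 ± 0.14 (difference 0.10, 95% interval -0.11 to 0.31, adjusted p = 0.509). Cd40, the receptor through which T lymphocytes help B lymphocytes and activate antigen-presenting cells, was at 5.10, 5.04, 5.28 and 5.25 in wild type and at 4.93, 4.89, 5.04 and 4.99 in the knockout. The groups did not overlap, but wild-type sample 2 and knockout sample 3 were equal after rounding. Cd40 fell by 0.21 (SE 0.06, adjusted p = 0.0302). Its other probe set differed by -0.02 (adjusted p = 0.927 over all probe sets), and the mean of both by -0.11 (adjusted p = 0.304), and both identifiers mark possible binding to other transcripts. Leaving out wild-type replicate 3 or 4 (adjusted p = 0.0898 and 0.0857) or knockout replicate 1 or 2 (adjusted p = 0.0690 and 0.0779) also ended the call of Cd40, as did quantile normalisation (-0.18, adjusted p = 0.0613), median centring (-0.18, adjusted p = 0.0524) or cyclic loess (-0.19, adjusted p = 0.0554).

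**Figure D2:**
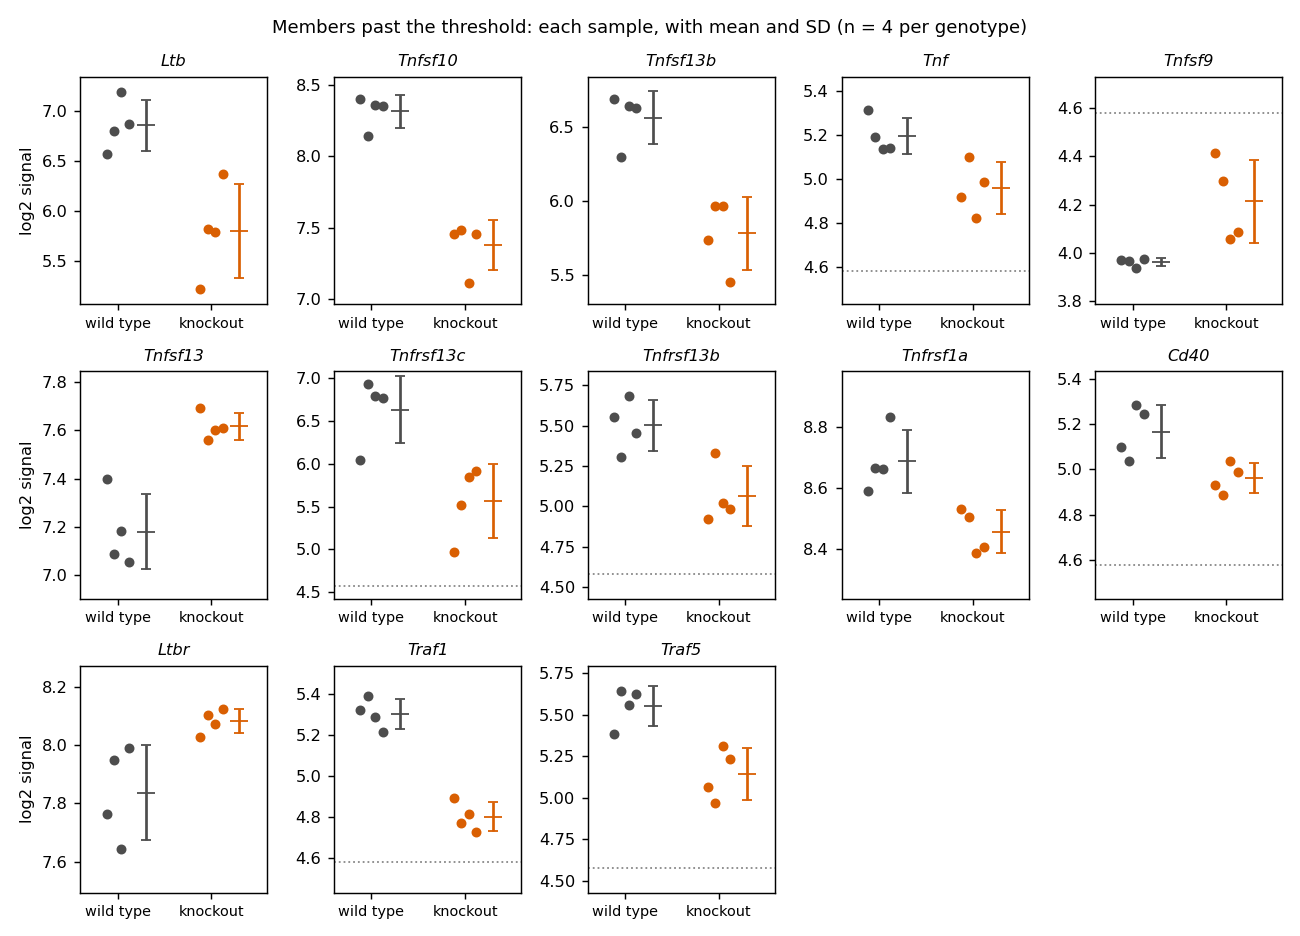
Log2 signal of each sample (points) for the 13 members past the threshold, with the mean and SD of each genotype beside them (n = 4); vertical axes differ between panels and do not start at 0, and the dotted line is the median of all probe sets (4.58) where it is in range. Groups are apart in each panel except that of Tnfrsf13b, and all 8 samples of Tnfsf9 lie below the dotted line.

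Markers of lymphocytes and of lymphoid follicles moved in the same samples. Of 9 measured B lymphocyte markers 7 fell, among them Cd79b (-1.31), Ms4a1 (-1.69) and Cd22 (-0.73, or -0.46 on averaging its probe sets), and the mean of the list was 5.18 to 5.61 in wild type and 4.60 to 5.08 in the knockout, with Fcrla, Blk and Pax5 dim. Sample 1 was the lowest of its genotype in that mean (5.18 and 4.60), as it was for Tnfrsf13c and Ltb. Cd40 was instead lowest in sample 2 of both genotypes, and Tnfrsf13b in wild-type sample 2 and knockout sample 1. All 8 measured markers of follicles and M cells fell, Spib by 1.05 and the chemokines Ccl20 and Ccl19 by 0.80 and 0.48. Their mean was 5.37 to 5.68 in wild type and 4.76 to 5.01 in the knockout, with Gp2 and Cxcr5 dim. Of 4 measured plasma cell markers, Prdm1 (-0.69) and Xbp1 (-0.16) fell. Jchain (-0.18, adjusted p = 0.0605) and Irf4 (-0.05, adjusted p = 0.524) did not pass. The mean of the 4 was 9.03 to 9.14 in wild type and 8.78 to 8.85 in the knockout. The call of Xbp1 was lost in 7 of its 19 alternatives. Fewer cells of a type and less RNA per cell cannot be told apart in whole tissue, and the part of these markers in the differences of the members was not tested.

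**Figure D3:**
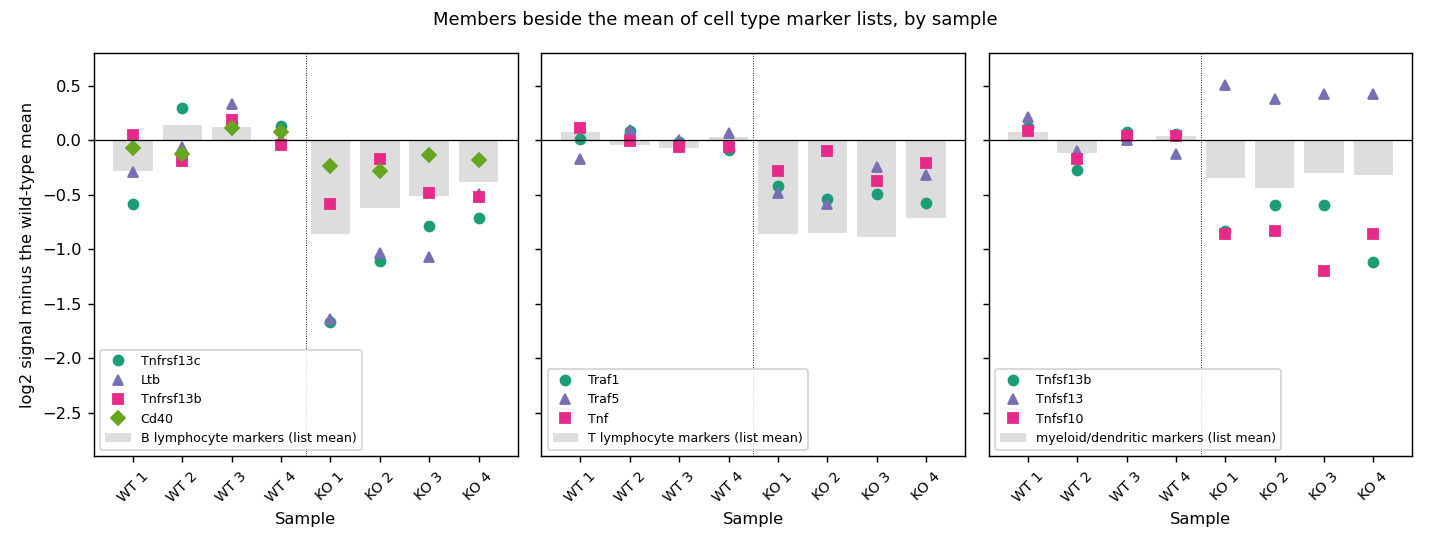
Log2 signal of each sample minus the wild-type mean of the same gene (points) or of the mean over a marker list (grey bars), for wild-type (WT) and knockout (KO) samples 1 to 4; the left panel sets Tnfrsf13c, Ltb, Tnfrsf13b and Cd40 beside B lymphocyte markers, the middle one Traf1, Traf5 and Tnf beside T lymphocyte markers, and the right one Tnfsf13b, Tnfsf13 and Tnfsf10 beside myeloid and dendritic cell markers. All 3 lists lie below 0 in each knockout sample, and Tnfsf13 is the member above 0 there.

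Tnfsf10 encodes TRAIL, a ligand of death receptors, and was at 8.41, 8.14, 8.36 and 8.35 in wild type and at 7.46, 7.48, 7.12 and 7.46 in the knockout. The groups were well apart, and knockout sample 3 was the lowest. Tnfsf10 fell by 0.94 (SE 0.09, adjusted p = 2.49e-05). Both other probe sets of Tnfsf10 fell too, by 0.81 (adjusted p = 6.60e-05 over all probe sets) and 0.31 (adjusted p = 0.00214). Tnfrsf10b, its death receptor in the mouse, was dim in both genotypes (3.81 ± 0.04 and 3.81 ± 0.06). Tnf was at 5.32, 5.19, 5.14 and 5.14 in wild type and at 4.92, 5.10, 4.82 and 4.99 in the knockout. The groups did not overlap, though knockout sample 2 was close below the lowest wild-type sample. Tnf fell by 0.24 (SE 0.07, adjusted p = 0.0191), a call that ended on leaving out wild-type replicate 1 (-0.20, adjusted p = 0.0560), knockout replicate 3 (-0.19, adjusted p = 0.0537) or the 3 arrays (-0.19, adjusted p = 0.176). Tnfrsf1a, the TNF receptor with a death domain that most cells carry, was at 8.59, 8.66, 8.66 and 8.83 in wild type and at 8.53, 8.50, 8.39 and 8.41 in the knockout. Every knockout sample was lower than every wild-type sample. Tnfrsf1a fell by 0.23 (SE 0.06, adjusted p = 0.0143), and by 0.18 without the 3 arrays, where the call was lost (adjusted p = 0.177). Tnfrsf1b, the other TNF receptor, found mainly on leukocytes and endothelium, was at 5.64 ± 0.09 and 5.45 ± 0.11 (difference -0.19, SE 0.07, adjusted p = 0.0526). Tnfrsf1b passed on leaving out wild-type replicate 2 (-0.22, adjusted p = 0.0454), knockout replicate 2 (-0.24, adjusted p = 0.0177) or dim genes (adjusted p = 0.0430), and its averaged probe sets differed by -0.08 (adjusted p = 0.302).

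Of the ligands that costimulate T lymphocytes, Tnfsf4, Tnfsf14 and Tnfsf9 were dim and Tnfsf8 was not. Tnfsf9, which encodes the ligand of 4-1BB, was at 3.97, 3.96, 3.94 and 3.97 in wild type and at 4.41, 4.30, 4.06 and 4.08 in the knockout. All 8 values were below the median of all probe sets, and knockout samples 1 and 2 were the highest. Tnfsf9 rose by 0.25 (SE 0.08, adjusted p = 0.0265). Leaving out any 1 of wild-type replicates 1 to 4 ended the call (adjusted p = 0.0518, 0.0550, 0.0639 and 0.0522), as did leaving out knockout replicate 1 (0.19, adjusted p = 0.0562) or 2 (0.22, adjusted p = 0.0701), and its difference was 0.40 without the 3 arrays (adjusted p = 0.00448). Tnfsf4, Tnfsf8 and Tnfsf14, the ligands of OX40, CD30 and HVEM, differed by -0.08, -0.03 and -0.04 and did not pass. Their receptors did not pass either, with Tnfrsf4 (OX40) at -0.06, Tnfrsf8 (CD30, dim) at 0.05, Tnfrsf9 (4-1BB) at -0.06 and Tnfrsf14 (HVEM) at -0.04. The 95% intervals of these 4 receptors lay between -0.21 and 0.17. Tnfrsf18 (GITR) and the dim Tnfrsf25 (DR3) differed by -0.05 and 0.03. In the same samples 12 of 14 T lymphocyte markers fell, among them Cd3g (-1.98) and Gzmb (-2.62), and the mean of the list was 5.81 to 5.96 in wild type and 4.997 to 5.17 in the knockout, with Cd5, Cd8b1, Cd247, Trat1 and Zap70 dim. The part of these markers in the values of the members was not tested.

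The RANK system, which drives M cell formation over Peyer's patches, showed no member past the threshold. Tnfsf11, the ligand RANKL, was dim and differed by 0.06 (95% interval -0.05 to 0.16). Tnfrsf11a, the receptor RANK, was at 6.12 ± 0.05 and 5.97 ± 0.08 (difference -0.14, adjusted p = 0.0659). It passed without knockout replicate 1 (-0.18, adjusted p = 0.0263), on averaging its probe sets (-0.18, adjusted p = 0.0275) and with cyclic loess (-0.15, adjusted p = 0.0463). Tnfrsf11b, the decoy receptor osteoprotegerin, was dim, and its difference of 0.13 (adjusted p = 0.0686) passed with median centring (0.15, adjusted p = 0.0385) and on leaving out knockout replicate 4 (0.16, adjusted p = 0.0388). The other receptors were Tnfrsf12a, the TWEAK receptor (-0.02), Tnfrsf19, a receptor of intestinal stem cells (-0.12), Tnfrsf21, a receptor with a death domain (-0.07), and the decoy TRAIL receptors Tnfrsf22 (0.03) and Tnfrsf23 (-0.07, dim). None of these 5 passed here or in any of their alternatives, and the interval of Tnfrsf21 was the widest, -0.37 to 0.22.

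Of the 4 adaptors, Traf1 and Traf5 fell and Traf2 and Traf6 did not pass. Traf1, an NF-kappaB-induced adaptor of activated lymphocytes, was at 5.32, 5.39, 5.29 and 5.22 in wild type and at 4.89, 4.77, 4.82 and 4.73 in the knockout. The groups were well apart, with a spread of 0.07 (SD) in each. Traf1 fell by 0.50 (SE 0.05, adjusted p = 5.69e-05), and its dim second probe set differed by -0.20 (adjusted p = 0.0571 over all probe sets). Traf5, an adaptor of costimulatory receptors such as OX40 and CD40, was at 5.38, 5.64, 5.55 and 5.62 in wild type and at 5.06, 4.97, 5.31 and 5.23 in the knockout. The groups did not overlap, and wild-type sample 1 was close above knockout sample 3. Traf5 fell by 0.41 (SE 0.08, adjusted p = 0.00336). Traf2, the adaptor that couples TNF receptors to ubiquitin ligases, was at 6.36 ± 0.05 and 6.46 ± 0.07 (difference 0.10, 95% interval -0.02 to 0.21). Traf6, which serves RANK, CD40 and Toll-like receptors, was at 5.31 ± 0.10 and 5.27 ± 0.07 (difference -0.05, 95% interval -0.18 to 0.09).

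Pathway genes outside the members were taken from 6 lists. Besides signalling genes, the lists hold superfamily ligands and receptors under other symbols, shedding proteases, and genes induced by TNF or lymphotoxin. Of these genes 73 were measured, and 6 rose and 24 fell. These are 8.22% and 32.9% of them, beside 17.1% and 12.9% of all genes, and their median difference was -0.07. Without the 3 arrays 15 fell. Of 10 ligands and receptors of the superfamily that go by other symbols, Fas, the death receptor of Fas ligand, fell by 0.46 (SE 0.08, adjusted p = 0.00172) and Ngfr, the p75 neurotrophin receptor, by 0.19. The call of Fas was lost without the 3 arrays (-0.40, adjusted p = 0.0593), and that of Ngfr there (-0.21, adjusted p = 0.0934) and on averaging its probe sets (-0.09, adjusted p = 0.119). The other 8 did not pass, and Fasl, Cd40lg, Cd27, Cd70, Edar and Eda2r were dim.

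Of 8 measured genes of death receptor signalling, 4 rose and 2 fell. Ripk3, the kinase of necroptosis, was at 7.38, 7.17, 7.02 and 7.17 in wild type and at 8.22, 8.09, 8.13 and 8.24 in the knockout. Mlkl, the membrane-breaking protein that Ripk3 phosphorylates, was at 5.86, 5.88, 5.68 and 5.92 in wild type and at 6.91, 6.43, 6.61 and 6.997 in the knockout. For both genes every knockout sample was above every wild-type sample. Ripk3 rose by 0.98 (SE 0.07, adjusted p = 6.13e-06) and Mlkl by 0.90 (SE 0.11, adjusted p = 0.000161). Tradd, the adaptor that docks on Tnfrsf1a, rose by 0.44 (adjusted p = 0.00134), and by 0.18 with the mean of its probe sets. Bid, the BH3-only protein that caspase-8 cleaves, fell by 0.62 (adjusted p = 0.000790), and by 0.39 with the mean of its probe sets. Fadd, the adaptor of caspase-8, and Cflar, its inhibitor, are named after their values were seen and moved by 0.25 and -0.23. With the mean of its probe sets Fadd differed by 0.14, and its call was lost without the 3 arrays (0.20, adjusted p = 0.131). That of Cflar ended there (-0.14, adjusted p = 0.215), on averaging its probe sets (-0.13, adjusted p = 0.0546) and without wild-type replicate 3 or knockout replicate 3. Casp8 differed by -0.18 and Edaradd by -0.03, neither past the threshold.

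Of 13 measured genes listed as NF-kappaB subunits and inhibitors, 7 fell and the other 6 did not pass, where 12.9% of all genes fell. The 7 were the subunits Relb and Rela, the inhibitors Nfkbie, Nfkbia, Tnfaip3 and Cyld, and Nfkbiz. Whether the calls of Nfkbia, Nfkbiz and Cyld stood without the 3 arrays was not followed gene by gene. The median difference of the list was -0.37. Relb, the subunit that the lymphotoxin and BAFF receptors activate through the noncanonical pathway, was at 8.51, 8.54, 8.62 and 8.40 in wild type and at 7.68, 7.72, 7.72 and 7.50 in the knockout. The groups were well apart, and Relb fell by 0.86 (SE 0.07, adjusted p = 6.89e-06). The inhibitor Nfkbie fell by 0.77, the deubiquitinase Tnfaip3, also called A20, by 0.51 and the subunit Rela by 0.40. With the mean of their probe sets the falls of Nfkbie and Tnfaip3 were 0.45 and 0.30. Nfkb2, the partner of Relb, differed by -0.14 (adjusted p = 0.336). Of 19 TRAF partners, ubiquitin enzymes and kinases, 1 rose and 4 fell. The inhibitors of apoptosis Birc3 and Birc2, which Traf2 recruits, fell by 0.37 (adjusted p = 0.000184) and 0.29 (adjusted p = 0.00198), and the kinase Ikbkb by 0.19. The kinase Map3k7, also called TAK1, rose by 0.26 (adjusted p = 0.00245). The call of Map3k7 ended on averaging its probe sets (0.10, adjusted p = 0.0606) and that of Ikbkb without the 3 arrays (-0.17, adjusted p = 0.0691), and the averaged probe sets of Ikbkb fell by 0.13. Map3k14, the NF-kappaB-inducing kinase that TRAF complexes degrade, differed by -0.07.

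Of 18 genes known to be induced by TNF or lymphotoxin, 9 fell and the other 9 did not pass, where 12.9% of all genes fell. Of the 9 that fell, 5 (Ccl19, Ccl20, Cxcl13, Madcam1 and Tnfaip2) also stand among the 8 follicle and M cell markers that fell, so these counts share genes. The chemokines Cxcl10 and Ccl20 fell by 0.71 (SE 0.11, adjusted p = 0.000486) and 0.80 (SE 0.12, adjusted p = 0.000515), Tnfaip8l2 by 0.41 and the adhesion molecule Icam1 by 0.44. Cxcl13, the chemokine that draws B lymphocytes into follicles and is named after its values were seen, was at 7.08, 8.01, 8.07 and 7.31 in wild type and at 5.15, 6.45, 6.89 and 6.79 in the knockout. Knockout sample 1 was far below the other knockout samples, and the groups did not overlap. Cxcl13 fell by 1.29 (SE 0.36, adjusted p = 0.0176), a call that ended on leaving out wild-type replicate 2 (-1.16, adjusted p = 0.0540) or 3 (-1.14, adjusted p = 0.0532) and with eBayes trend and robust (adjusted p = 0.0869). Vcam1 and Ccl2 differed by 0.04 and 0.03, and Il6, Cxcl1, Cxcl2, Sele, Selp, Tnfaip6 and Glycam1 were dim. Of these dim genes, Selp is among the 9 that fell. Of 5 proteases and cofactors that shed the ligands and receptors, Rhbdf2, which brings the TNF-shedding protease to the cell surface, rose by 0.24 (SE 0.05, adjusted p = 0.00580), and Adam17, that protease, differed by 0.04.

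**Figure D4:**
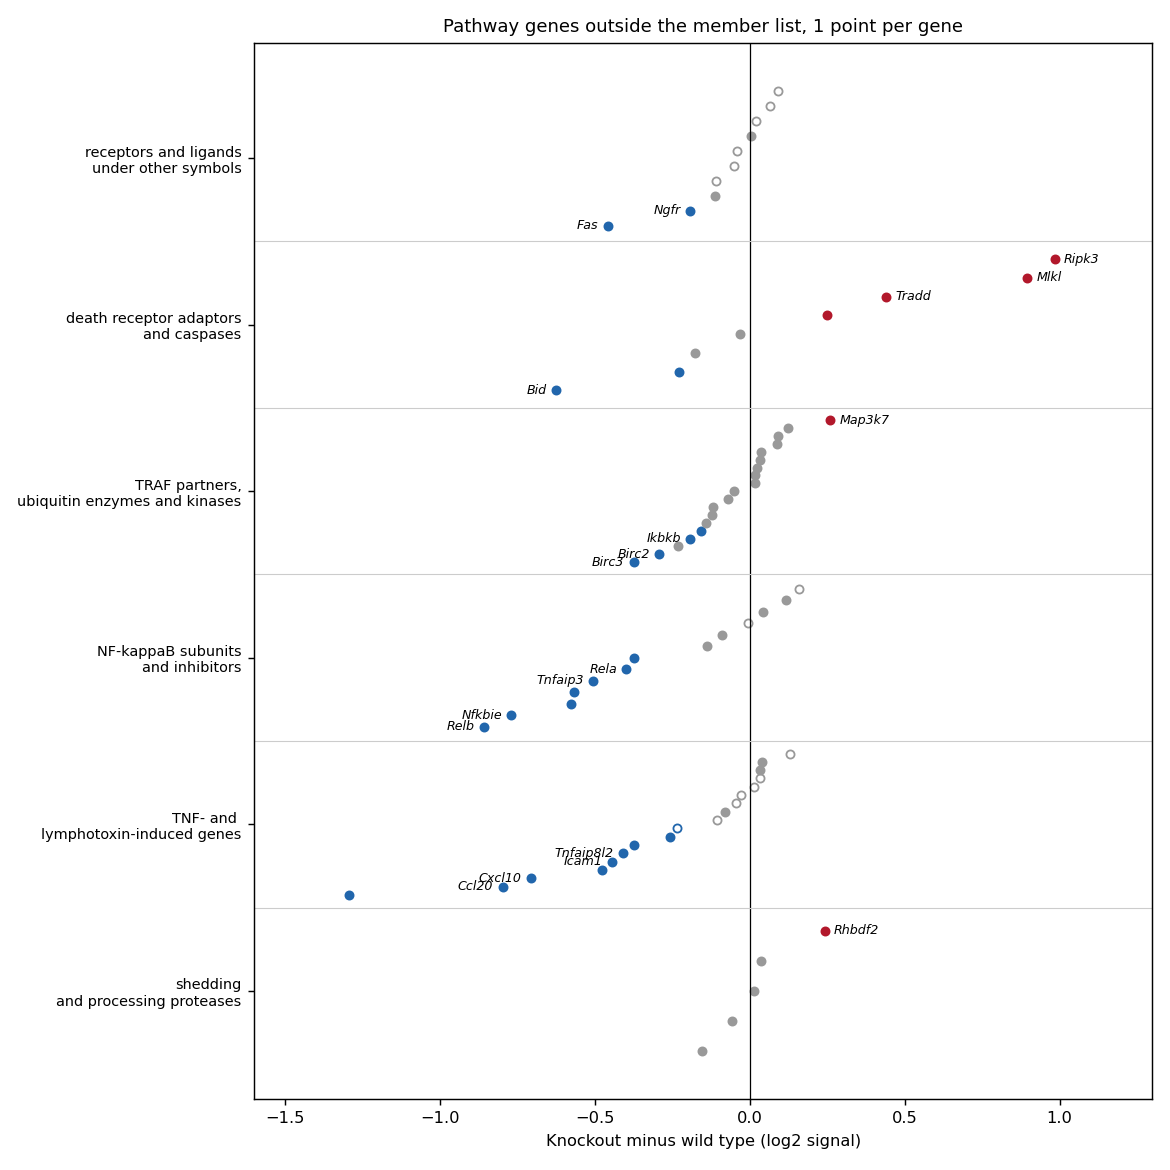
Difference between knockout and wild type (log2 signal, horizontal axis) for the 73 measured pathway genes in 6 lists, 1 point per gene; red points rose and blue points fell at an adjusted p under 0.05, grey points did not pass, and open points have both means below the median of all probe sets. Ripk3 (0.98) and Mlkl (0.90) are furthest to the right, and the unlabelled point furthest to the left is Cxcl13 (-1.29).

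Myeloid and dendritic cells are a known source of BAFF and APRIL, and 6 of 12 of their measured markers fell and 2 rose. Ctss, Cd74 and Itgax fell, with differences of -0.82, -1.99 and -0.48. Cd14 and Mrc1 rose by 0.44 and 0.40, and the macrophage genes Csf1r (-0.07) and Adgre1 (-0.12) did not pass. Without the 3 arrays Mrc1 lost its call (0.26, adjusted p = 0.259) and Csf1r passed (-0.24, adjusted p = 0.0449). Mrc1 also lost it on leaving out wild-type replicate 2 (0.34, adjusted p = 0.0530) or knockout replicate 1 or 3 (adjusted p = 0.0502 for each). Over the whole list the mean was 7.37 to 7.57 in wild type and 7.05 to 7.19 in the knockout, with Cd68 and Itgam dim. Neither of these dim genes passed. Cd74 differed most of the 12 markers, and the median difference of the list was -0.23. Of 9 epithelial markers 2 rose and 3 fell, with a mean of 11.80 to 11.87 and 11.76 to 11.82, and of 9 fibroblast markers 1 rose and 2 fell, with a mean of 6.82 to 7.12 and 6.83 to 7.03. Of 10 endothelial markers 3 fell, with a mean of 4.95 to 5.05 and 4.80 to 4.89. Of these 3, Vwf (-0.17) lost its call in 14 of 19 alternatives and Cdh5 (-0.28) on averaging its probe sets (-0.13, adjusted p = 0.121). The part of these lists in the values of Tnfsf13b, Tnfsf13 and Tnfsf10 was not tested.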

How the data were processed

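Per the submitters' processing notes the deposited log2 values, 1 per probe set and array, come from RMA; the sources used here name no software version. RMA compresses low signals, so folds near the floor are understated. The table holds no detection calls and no batches. Of 45141 probe sets, 28898 had 1 gene symbol in the platform annotation, updated through the Entrez identifier to RefSeq of GRCm38.p6 where it matched (28689). The probe set brightest over all 8 arrays stood for a gene. The test was limma 3.58.1 (R 4.3.3; lmFit, eBayes, 2-sided) with Benjamini-Hochberg adjustment over 17097 genes, tested on simulated data. The members, lists and alternatives were chosen with earlier results of these data known. All members could be named. Of each pathway list up to 4, and of each marker list up to 3, genes of smallest adjusted p were named; list genes given beyond these were chosen after their values were seen. Figures were drawn with matplotlib 3.10.9. With 4 arrays a genotype, precision is limited by their number.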

Additional observations from a re-analysis of the deposited data

Results flagged for a closer look

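In 7 of 74 groups of 4 samples, 1 sample lay far from the other 3 by Dixon's criterion, where about 1 in 20 groups is flagged by chance (3.7 groups). Tnfsf10 in knockout sample 3 was at 7.12, the other knockout samples at 7.46 to 7.48. Tnfsf13b in wild-type sample 2 was at 6.29, the others at 6.63 to 6.69. Both genes passed the threshold in every alternative, that without the sample included. Tnfsf4 was high in wild-type sample 2 (4.60) and low in knockout sample 3 (4.16). Tnfsf8 in wild-type sample 3 (4.59), Tnfrsf22 in wild-type sample 3 (5.28) and Tnfrsf11b in wild-type sample 2 (3.65) were low. None of these last 4 genes passed the threshold.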

How the results depend on the processing

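Of the 13 members past the threshold, 8 passed in all 19 alternatives (Ltb, Tnfsf10, Tnfsf13b, Tnfsf13, Tnfrsf13c, Tnfrsf13b, Traf1 and Traf5), the other 5 lost the call in at least 1, and none of the 13 changed sign. Of the 24 others, 4 passed in some alternative. Leaving out 1 array gave 1 to 3 members higher and 9 to 11 lower, the lowest count of 1 higher being without wild-type replicate 3 and without knockout replicate 2. At an adjusted p of 0.01 there was 1 member higher. With a fold of at least 1.5 added, 825 genes differed, and the members counted 0 higher (also 0 at an unadjusted p under 0.05, limma) and 4 lower, the pathway genes 2 higher and 6 lower. Without the 3 arrays 15 pathway genes fell. The cause was not tested beyond the stricter thresholds and fewer arrays these settings use. With the replicate number as a block, 5190 genes differed, 3 members rose and 10 fell; deviations of same-numbered samples correlated by 0.22, -0.05, 0.11 and 0.16, which is not over 0.1 for every number, and no label says that a number marks a shared animal or batch. Sample 1 and sample 4 of both genotypes and knockout sample 3 correlated best with their own number. Wild-type samples 2 and 3 and knockout sample 2 correlated best with another number. Whether samples were paired was not tested. With the block the SE of Tnfrsf13c was 0.09 rather than 0.22, and its call stood. For dim genes the signal over background limits what can be detected.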
